A study of Mus musculus with 12 samples.

Results

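The mRNAs of 8 genes were followed: Pdpk1, the kinases Akt1 and Akt2, the kinase Gsk3b and the transcription factors Foxo1, Foxo3, Foxo4 and Foxo6. They were found by symbol among the 53090 gene rows of each table, and all 8 passed the filter on low counts, which left 18638 genes to test. Retinas of C57BL/6 mice at postnatal day 9 (P9, 6 libraries) were compared with retinas at postnatal day 3 (P3, 6 libraries). RNA was recovered by immunoprecipitation through an HA tag on ribosomes, and the labels give the cell type of both ages as retinal pericytes, contractile cells of the capillary wall. Mice of both ages received tamoxifen by intraperitoneal injection at P1 and P2, so the time since the injections was longer at P9, and this cannot be told apart from age. Neither the driver that switches on the tag nor the number of animals behind a library is stated in the labels. The p-values therefore measure the spread between libraries.

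Growth factor receptors activate PI3-kinase, which makes the membrane lipid PIP3. PDK1, the protein of Pdpk1, and AKT both bind PIP3, and PDK1 then phosphorylates the activation loop of AKT. Active AKT phosphorylates GSK3β and the FOXO factors: GSK3β is inhibited, and the FOXO factors are held in the cytoplasm by 14-3-3 proteins, away from their target genes. These steps are changes of protein phosphorylation and location, which mRNA counts do not measure. In blood vessels, FOXO1 is known as a brake on endothelial growth, and AKT1 is the most abundant AKT of endothelial cells.

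The core FOXO binding motif GTAAACA was searched on both strands in the RefSeq promoter windows of GRCm38.p6, each reaching from 250 bases before to 50 bases after an annotated start. Windows were found for 6 of the 8 genes, 11 windows in all, and not for Foxo4 and Foxo6. Akt1 was the 1 gene of these 6 with the motif, in 1 of its 2 windows. The Akt1 stretch is shown with those of Bcl2l11 and Txnip, FOXO target genes whose levels are described further on. Capitals mark the motif, each line reads 5′ to 3′ on the strand of the gene, and TGTTTAC is the motif on the opposite strand.
Akt1 (chr12:112675009-112675075, minus strand): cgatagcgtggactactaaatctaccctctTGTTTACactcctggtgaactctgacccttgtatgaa
Bcl2l11 (chr2:128125788-128125847, plus strand): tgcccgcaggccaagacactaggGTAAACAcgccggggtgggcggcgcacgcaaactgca
Txnip (chr3:96557806-96557872, plus strand): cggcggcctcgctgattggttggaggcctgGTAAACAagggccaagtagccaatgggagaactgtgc
The motif lies at -161 from the Akt1 start, at -227 in Bcl2l11 and at -121 in Txnip. It is present in 1199 of all 32851 windows (3.65%) and in 1095 of the 27025 genes with a window (4.05%). A match in these letters is a description of the sequence and not a measured binding site.

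Library totals ran from about 32507000 to 37776000 expected counts at P9 and from about 26840000 to 33514000 at P3, so that 1 CPM, the unit of level after scaling to library size, rested on 25.8 to 38.5 counts. CPM values were adjusted by the TMM method, which corrects for library composition. They were not divided by gene length, so levels of different genes are not ranked against each other. The 15 pericyte markers summed to 2915 to 6551 CPM at P9 and to 401.6 to 1425 CPM at P3. Of these, 12 rose, and Ndufa4l2, Atp13a5 and Zic1 did not pass the test. Markers of other cells were present at both ages. The 13 rod markers, all of which rose, summed to 10360 to 19980 CPM at P9 and to 1879 to 4066 CPM at P3. The 12 proliferation markers, all of which fell, summed to 201.2 to 346.6 CPM at P9 and to 1408 to 5896 CPM at P3. Of the 13 retinal progenitor markers, 12 fell and 1 rose, with sums of 1255 to 1489 CPM at P9 and 2190 to 3072 CPM at P3. The 7 lens markers all fell, with sums of 47.28 to 1420 CPM at P9 and 3468 to 10510 CPM at P3. None of the listed markers was at 0 in all libraries. Which cell types the mRNA of the 8 genes came from was not measured. For any marker list, cell number, RNA per cell and carry-over of RNA in the immunoprecipitation cannot be told apart. All 12 libraries came from immunoprecipitation, with no library of whole retinal RNA beside them, so its purity at each age was not tested. P3 replicates 4 and 5 stood apart from the other P3 libraries: their proliferation markers summed to 1408 and 1416 CPM, against 3220 to 5896 CPM in the other 4, and their pericyte markers to 1285 and 1425 CPM, against 401.6 to 727.5 CPM. Their rod markers summed to 4066 and 3757 CPM, against 1879 to 2520 CPM in the other 4, and their Müller glia markers to 1404 and 1457 CPM, against 1033 to 1218 CPM. The sums of smooth muscle, astrocyte, bipolar and endothelial markers were likewise higher in both, and that of progenitor markers lower, than in each of the other P3 libraries. The endothelial, bipolar and astrocyte sums rested mostly on 1 gene each and do not show that the whole lists were raised. At P3 Kdr averaged 926 CPM, Otx2 1033 CPM and Slc1a2 337 CPM. The median sums of their lists were 1012 (endothelial), 1140 (bipolar) and 456.5 CPM (astrocyte). Much of the proliferation sum came from Mki67, which averaged 1926 ± 1335 CPM (SD) at P3. Results that rest on these libraries are given with and without them.

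Of the 8 genes, Pdpk1 and Foxo1 were higher at P9, Akt1, Akt2, Foxo4 and Foxo6 were lower, and Gsk3b and Foxo3 did not pass the test. The 3 with no overlap between the ages were Akt1, Foxo4 and Foxo6. The test was the quasi-likelihood test of edgeR and p was adjusted by Benjamini-Hochberg over the whole table, with calls made under 0.05. By this test 51.8% of all genes differed, 26.1% higher and 25.6% lower at P9, and the ages did not overlap for 31.7% of genes. Being called at all was thus common between these ages, and 6 of 8 has to be read against that share. The share covers all tested genes, low ones included, and was not computed for genes at levels like these. The same limit holds for the shares of all tested genes set beside the gene lists further on. The median log2 fold change of the 8 genes, P9 over P3, was -0.25, against -0.0018 for all tested genes.

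**Figure D1:**
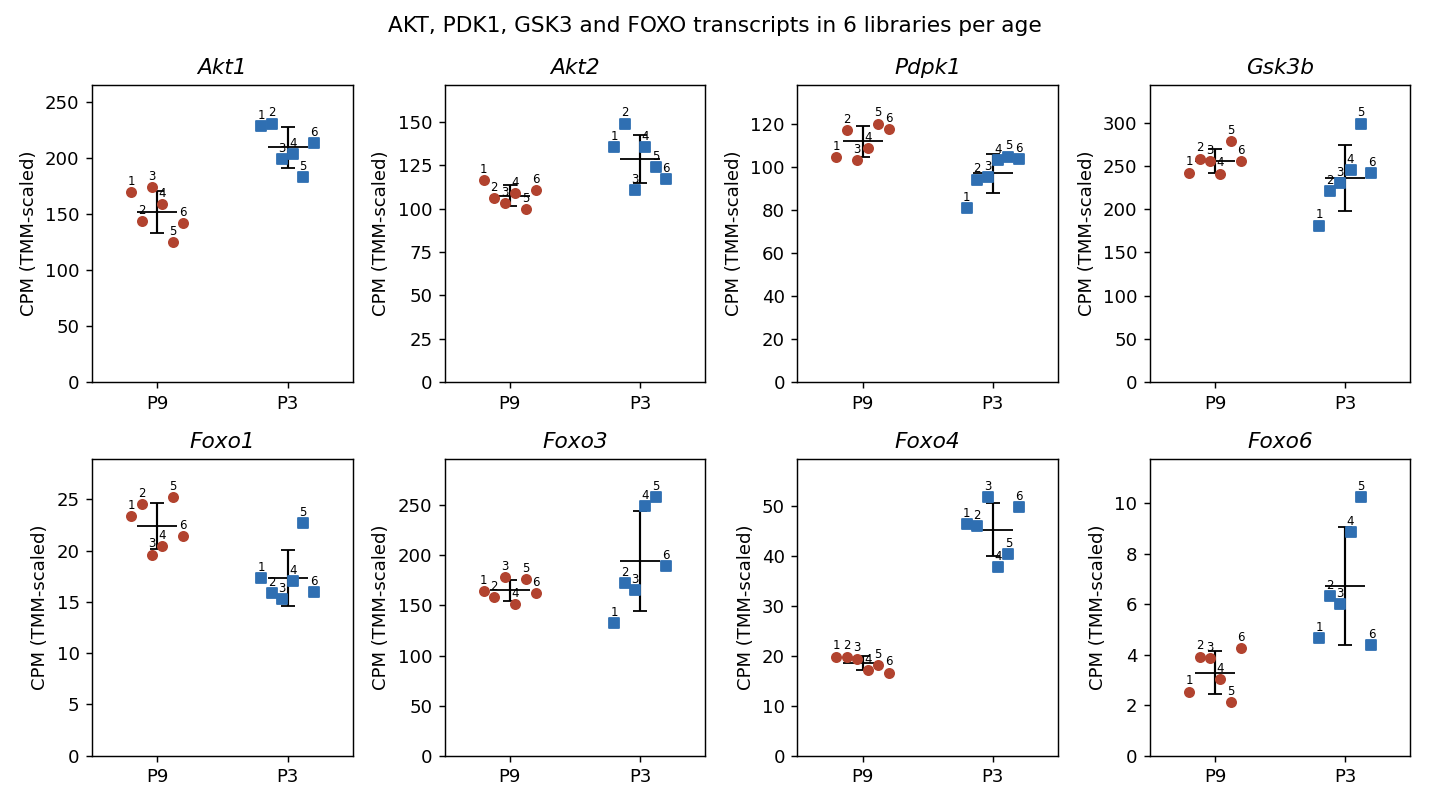
Level of each gene in every library, in TMM-scaled CPM on a linear axis from 0 in each panel, with P9 left of P3. Numbered points are replicates and bars are means with SD (n = 6 each); P9 points lie wholly below P3 points for Akt1, Foxo4 and Foxo6.

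Pdpk1, the gene of the kinase that phosphorylates the activation loop of AKT, was slightly higher at P9. It lies on chromosome 17 from 24073680 to 24155619 (GRCm38.p6, as for all positions given). Its lowest, median and highest levels were 103, 113 and 120 CPM at P9, against 80.9, 99.3 and 105 CPM at P3. The lowest P3 library was replicate 1, and the ages overlapped. Means were 112 ± 7.35 CPM at P9 and 97.0 ± 9.12 CPM at P3 (SD, n = 6 each). The log2 fold change was 0.21 ± 0.076 (SE), with an edgeR adjusted p of 0.0337. This call was the least firm of the 6: it was lost when any 1 of P3 replicates 1, 2 and 3 or P9 replicates 2, 5 and 6 was left out, with adjusted p from 0.0624 to 0.0734.

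Akt1 mRNA fell. The gene, on chromosome 12 from 112653821 to 112674884, encodes the AKT best known for roles in growth and survival. Its levels had a lowest, median and highest of 125, 151 and 174 CPM at P9, against 183, 208 and 231 CPM at P3. The highest P9 library lay below the lowest P3 library. Means were 152 ± 18.8 CPM at P9 and 209 ± 18.3 CPM at P3, a 1.38-fold lower level at P9 (log2 fold change -0.46 ± 0.090, edgeR adjusted p = 0.000571). P3 replicate 5 held the lowest P3 level and P9 replicate 5 the lowest P9 level.

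Akt2, the isoform best known for insulin-stimulated glucose uptake, also fell, by less. It lies on chromosome 7 from 27591552 to 27640826. Its lowest, median and highest levels were 99.9, 107 and 117 CPM at P9, against 111, 130 and 149 CPM at P3. The ages overlapped, with P9 replicate 1 above P3 replicate 3. Means were 107.5 ± 5.88 CPM at P9 and 129 ± 14.009 CPM at P3, and the log2 fold change was -0.26 ± 0.078 (edgeR adjusted p = 0.0112). Without P9 replicates 5 and 6 together it was -0.24, with an adjusted p of 0.0505. Akt2 was the only one of the 8 genes whose expected counts were not whole in all 12 libraries, which means that some of its reads were shared with another row by the counting model.

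The balance of Akt2 to Akt1 within each library was shifted toward Akt2 at P9. The log2 ratio of Akt2 to Akt1 counts averaged -0.49 ± 0.16 at P9 and -0.70 ± 0.13 at P3 (SD, n = 6 each). The difference was 0.21, a 1.16-fold change of the ratio, with an exact two-sided permutation p of 0.0303 and 0.0354 after adjustment over the 7 gene pairs tested. The ages overlapped. The call did not hold when any 1 of 8 of the 12 libraries was left out (exact adjusted p from 0.0505 to 0.0707), P3 replicates 1, 3 and 6 and P9 replicates 1, 2, 4, 5 and 6.

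Gsk3b encodes a kinase that AKT inhibits and that acts on glycogen synthase and β-catenin among many other proteins. It lies on chromosome 16 from 38089001 to 38246084. Its lowest, median and highest levels were 241, 256 and 279 CPM at P9, against 181, 236 and 299 CPM at P3. The P9 libraries lay inside the range of the P3 libraries, of which replicate 5 was the highest and replicate 1 the lowest. Means were 255 ± 13.7 CPM at P9 and 236 ± 38.4 CPM at P3 (log2 fold change 0.11 ± 0.098, 95% interval -0.097 to 0.32, edgeR adjusted p = 0.359). Without P3 replicates 4 and 5 the log2 fold change was 0.23, with an adjusted p of 0.0394.

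The 4 FOXO genes moved in different directions. Foxo1 was higher at P9, Foxo4 and Foxo6 were lower, and Foxo3 did not pass the test. FOXO proteins share a forkhead domain that binds DNA and control genes of cell cycle arrest, cell death, oxidative stress and metabolism.

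Foxo1 lies on chromosome 3 from 52268337 to 52350109. Its lowest, median and highest levels were 19.6, 22.3 and 25.2 CPM at P9, against 15.2, 16.5 and 22.7 CPM at P3. The ages overlapped through 1 library, P3 replicate 5 at 22.7 CPM, while the other 5 P3 libraries lay at or below 17.3 CPM and under every P9 library. Means were 22.4 ± 2.26 CPM at P9 and 17.3 ± 2.74 CPM at P3, 1.29-fold higher at P9. The log2 fold change was 0.37 ± 0.11 (edgeR adjusted p = 0.0114), and it was 0.48 without P3 replicates 4 and 5 (adjusted p = 0.0013).

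Foxo3, on chromosome 10 from 42181845 to 42276695, was even among P9 libraries and uneven among P3 libraries. Its lowest, median and highest levels were 151, 164 and 179 CPM at P9, against 132, 181 and 258 CPM at P3. The coefficient of variation was 6.33% at P9 and 25.5% at P3. P3 replicates 4 and 5 held the highest levels, 249 and 258 CPM, the libraries that stood apart in proliferation, progenitor, pericyte, rod and several other marker sums. The log2 fold change was -0.23 ± 0.14 (95% interval -0.53 to 0.060, edgeR adjusted p = 0.170). It was 0.007 without P3 replicates 4 and 5 (adjusted p = 0.962), and -0.33 with an adjusted p of 0.0343 without P3 replicate 1, the lowest P3 library.

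Foxo4 showed the largest change of the 8 genes. It lies on chromosome X from 101254261 to 101260873. Its levels had a lowest, median and highest of 16.6, 18.8 and 19.8 CPM at P9, against 37.7, 46.1 and 51.7 CPM at P3. Every P9 library lay well below every P3 library. Means were 18.5 ± 1.41 CPM at P9 and 45.3 ± 5.37 CPM at P3, 2.45-fold lower at P9. The log2 fold change was -1.29 ± 0.091 with an edgeR adjusted p of 7.06e-08, rank 162 by p among the 18638 genes. Within P3, the lowest levels were those of replicates 4 and 5, at 37.7 and 40.4 CPM, and the highest was that of replicate 3, at 51.7 CPM, which also had the highest proliferation marker sum.

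Foxo6, on chromosome 4 from 120267078 to 120287261, was the least covered of the 8 genes, with 69 to 151 counts per library at P9 and 141 to 332 counts at P3. In rodents FOXO6 is known mainly from the brain, where it differs from the other FOXO proteins in its limited shuttling out of the nucleus. Its lowest, median and highest levels were 2.13, 3.45 and 4.26 CPM at P9, against 4.36, 6.16 and 10.2 CPM at P3. The ages were separated by a narrow gap. Means were 3.29 ± 0.856 CPM at P9 and 6.74 ± 2.34 CPM at P3, 2.05-fold lower at P9 (log2 fold change -1.03 ± 0.25, edgeR adjusted p = 0.00260). P3 replicates 4 and 5 were again the highest, at 8.85 and 10.2 CPM, and without them the log2 fold change was -0.69 (adjusted p = 0.0248). Within P3, Foxo6 and Foxo3 were thus highest in the 2 libraries in which Foxo4 was lowest.

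**Figure D2:**
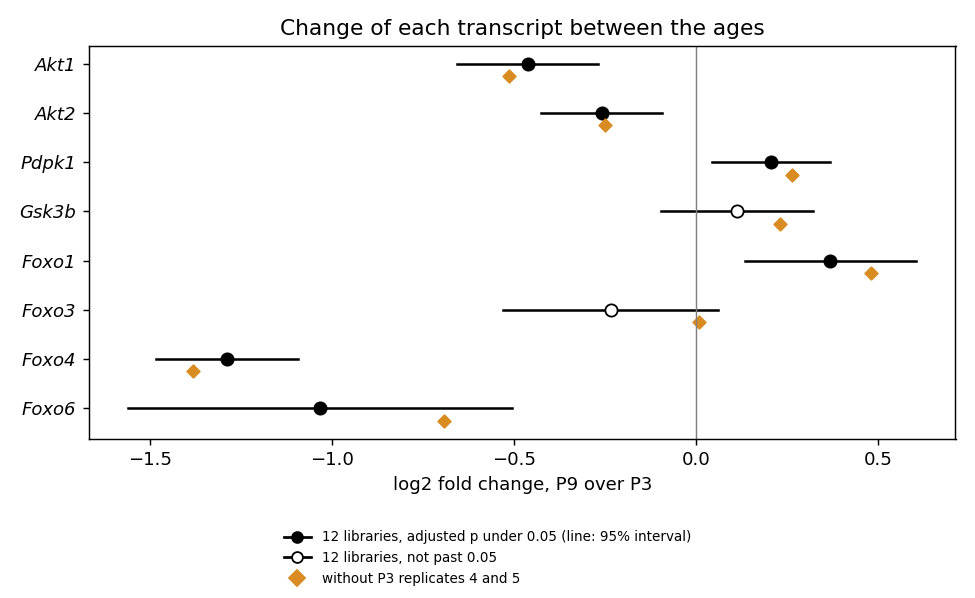
Log2 fold change, P9 over P3, of each gene: circles with 95% intervals are from all 12 libraries (filled where the edgeR adjusted p was under 0.05), and diamonds are without P3 replicates 4 and 5. Intervals of Gsk3b and Foxo3 cross 0, Foxo4 (-1.29) and Foxo6 (-1.03) lie farthest from it, and the Foxo3 diamond is at 0.007.

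Ratios of FOXO counts within a library do not depend on library scaling, and they were compared for all 6 pairs. Foxo1 gained on each of the others. The log2 ratio of Foxo1 to Foxo4 averaged 0.27 ± 0.15 at P9 and -1.39 ± 0.35 at P3 (SD, n = 6 each), a difference of 1.66 or 3.16-fold, with no overlap between the ages (exact permutation p = 0.00216, the smallest that 6 against 6 libraries allow, adjusted p = 0.00505). The ratio of Foxo1 to Foxo6 was higher by 1.38 and that of Foxo3 to Foxo4 by 1.09 on the log2 scale, both with no overlap and the same exact p. The ratio of Foxo1 to Foxo3 was higher by 0.57 (exact adjusted p = 0.00758) and that of Foxo3 to Foxo6 by 0.81 (exact adjusted p = 0.00909), with overlap. Foxo4 and Foxo6, which both fell, did not pass the test for a change of their ratio: the difference was -0.28 (exact adjusted p = 0.379), and -0.67 without P3 replicates 4 and 5 (exact adjusted p = 0.0333).

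**Figure D3:**
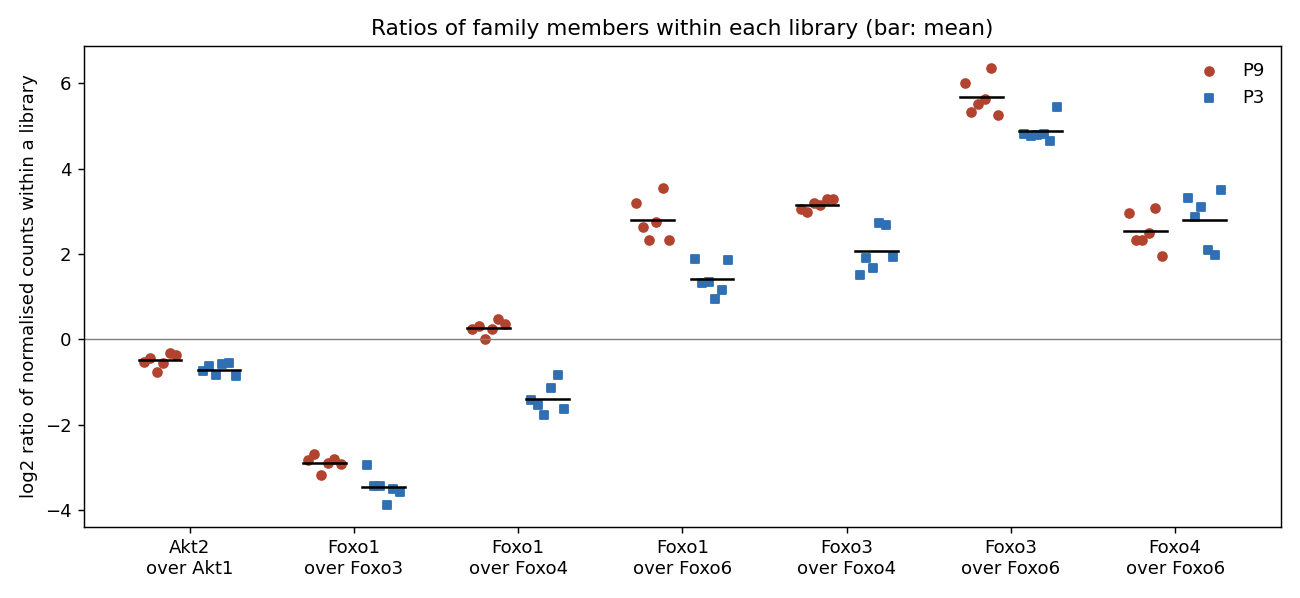
Log2 ratio of the counts of each pair of genes within a library, with P9 left of P3; points are libraries and bars are means (n = 6 each). The ages are apart for Foxo1 over Foxo4, Foxo1 over Foxo6 and Foxo3 over Foxo4, and overlap for the other 4 pairs.

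The genes whose log2 CPM ran most like each of the 8 over the 12 libraries were picked by Pearson correlation among 10435 genes averaging 10 CPM or more (10436 for Foxo6). The libraries share age and cell makeup, so these values describe likeness only. Foxo4 ran closest to Top2a (r = 0.996) and Cenpf (r = 0.995), genes of mitosis that are also on the proliferation marker list, and the correlation of deviations from the age means was 0.919 for Top2a and 0.880 for Cenpf. Top2a averaged 36.2 CPM at P9 and 458 CPM at P3, a larger fall than that of Foxo4. Foxo3 ran closest to Tubb3 (r = 0.946) and Chrna4 (r = 0.938), a neuronal tubulin and a neuronal acetylcholine receptor subunit. Akt1 was most like Ncln (r = 0.981) and Lrfn4 (r = 0.976). Akt2 was most like Dnlz (r = 0.931) and Grik5 (r = 0.919). Pdpk1 was most like Cdk19 (r = 0.960) and Rdh10 (r = 0.955), and Gsk3b like Ankrd17 (r = 0.949) and Tmtc2 (r = 0.939). Foxo1 was most like Trak1 (r = 0.919) and Unc80 (r = 0.913), and Foxo6 like Rbm15b (r = 0.923) and Bcat1 (r = 0.920).

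**Figure D4:**
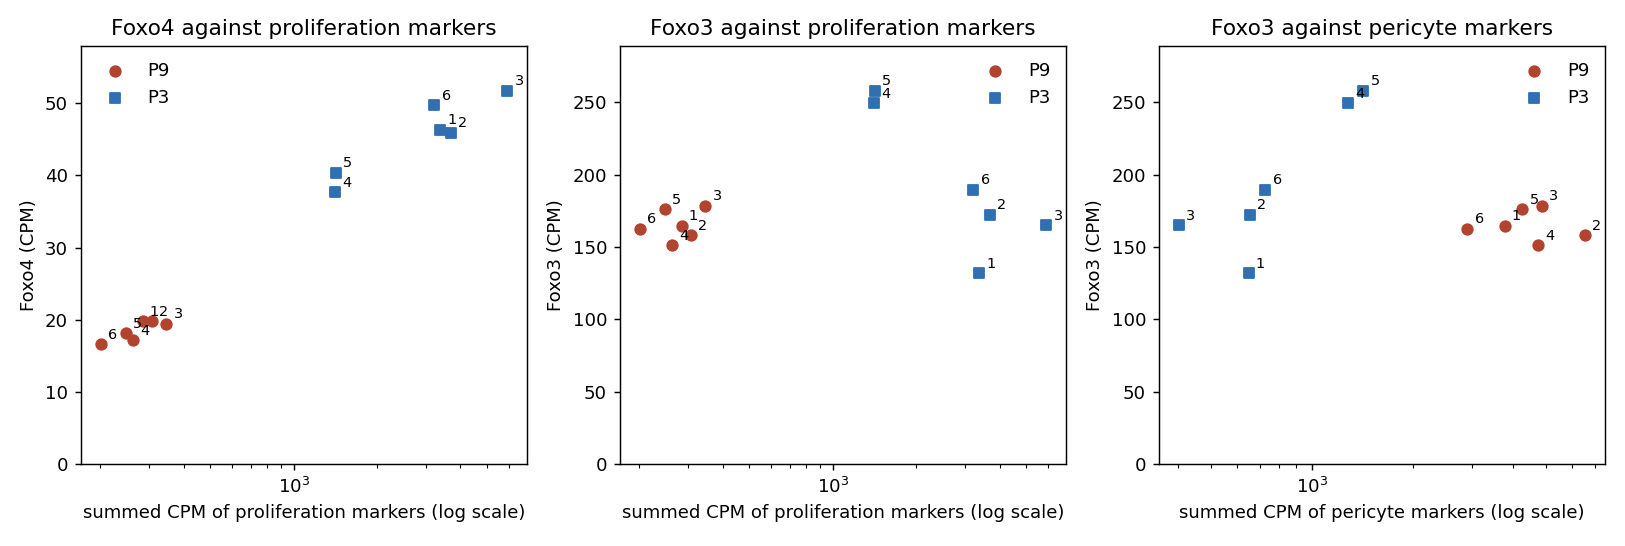
Foxo4 (left) and Foxo3 (middle) against the summed CPM of the 12 proliferation markers, and Foxo3 (right) against that of the 15 pericyte markers, in CPM with log horizontal axes; points are the 12 libraries, numbered by replicate. P3 replicates 4 and 5 lie apart from the other P3 libraries, at 1408 and 1416 CPM of proliferation markers, with the lowest Foxo4 and the highest Foxo3 of that age.

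When the mean of a marker list was added to the model as a covariate, most calls were lost, in all genes as well as in these 8. Each covariate shared much of its variance with age, from 84.7% for pericyte markers to 97.2% for progenitor markers. With the pericyte mean, Foxo4 (log2 fold change -0.93, edgeR adjusted p = 0.0197) and Foxo6 (-1.94, adjusted p = 0.0405) were still called lower, Foxo3 became so (-1.004, adjusted p = 0.0338), and Akt1 was not called (-0.34, adjusted p = 0.50). With the proliferation mean, Foxo4 was at -0.43 (adjusted p = 0.753) and Akt1 at 0.083 (adjusted p = 0.978), and 8 genes of all tested were called. With the rod mean, Foxo4 was at -0.67 (adjusted p = 0.364). With the lens mean, Foxo4 was still called lower (-1.02, adjusted p = 0.0291). The proliferation and lens means were added after seeing the data. The parts of cell makeup and of carry-over in the immunoprecipitation cannot be told apart from that of age in these models.

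Among relatives of these kinases, Sgk3, a kinase close to AKT, fell to 6.78 ± 1.11 CPM at P9, against 10.7 ± 0.958 CPM at P3 (log2 fold change -0.66, edgeR adjusted p = 0.000636). Of the 4 relatives tested, it was the only one called. Gsk3a had 114 ± 8.80 CPM at P9 and 111 ± 4.24 CPM at P3 (adjusted p = 0.649).

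Of 26 tested AKT regulators, 11 rose (42.3%) and 8 fell (30.8%), against 26.1% and 25.6% of all tested genes, with a median log2 fold change of 0.15. Phosphatases of this group moved both ways. Inpp4b, which removes a phosphate from PI(3,4)P2, rose to 37.4 ± 2.90 CPM at P9, against 13.99 ± 2.31 CPM at P3 (log2 fold change 1.42, edgeR adjusted p = 1.45e-07). Phlpp2, which dephosphorylates AKT, rose to 130 ± 17.1 CPM at P9, against 60.0 ± 7.999 CPM at P3 (1.11, adjusted p = 8.27e-07). Inppl1, the gene of the lipid phosphatase SHIP2, fell to 55.7 ± 3.26 CPM at P9, against 149 ± 16.3 CPM at P3 (-1.42, adjusted p = 1.43e-08). The HSP90 chaperone genes moved apart. Hsp90ab1 fell to 792 ± 69.1 CPM at P9, against 948 ± 141 CPM at P3 (-0.26, adjusted p = 0.0434), while Hsp90aa1, named after its value was seen, rose to 992 ± 131 CPM at P9, against 608 ± 100.3 CPM at P3 (0.71, adjusted p = 0.000162).

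Of 21 other AKT substrates, 4 rose (19%) and 10 fell (47.6%), against the same shares of all tested genes, with a median log2 fold change of -0.12. Cdkn1b, a cell cycle inhibitor that is also on the FOXO target list, fell to 88.3 ± 9.49 CPM at P9, against 168 ± 22.3 CPM at P3 (-0.93, edgeR adjusted p = 2.28e-06). Irs1, an adaptor of the insulin receptor, fell by 0.88 on the log2 scale (adjusted p = 8.09e-06), and Wnk1, a kinase that regulates ion transport, fell by 0.38 (adjusted p = 0.000545). Pfkfb2, which makes an activator of glycolysis, rose to 229 ± 36.0 CPM at P9, against 110 ± 8.10 CPM at P3 (1.07, adjusted p = 9.73e-07).

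Among 22 regulators of FOXO proteins, 8 rose (36.4%) and 10 fell (45.5%), against 26.1% and 25.6% of all tested genes, with a median log2 fold change of -0.06. Of the 6 genes of 14-3-3 proteins on this list, picked out after their values were seen, 5 rose and Ywhaq did not pass the test (log2 fold change 0.06). Ywhaz rose to 545 ± 40.9 CPM at P9, against 384 ± 63.1 CPM at P3 (0.50, edgeR adjusted p = 0.000889). Sirt2, a deacetylase that acts on FOXO proteins, rose by 0.55 (adjusted p = 5.20e-06). Csnk1e, a casein kinase, fell by 0.75 (adjusted p = 2.76e-06), and Ikbkb, a kinase of the NF-κB pathway that phosphorylates FOXO3, fell by 0.90 (adjusted p = 7.98e-06). The number of regulators that rose was 5 without P9 replicates 5 and 6.

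Of 33 tested FOXO target genes of 38 listed, 11 rose (33.3%), 8 fell (24.2%) and 14 did not pass the test, again against 26.1% and 25.6% of all tested genes, with a median log2 fold change of 0.28. The genes with the smallest adjusted p, Bcl2l11, Txnip and Cdkn1b, all fell. The 11 that rose include Sesn2 (1.115, edgeR adjusted p = 5.09e-06) and Ppargc1a (1.33, adjusted p = 8.01e-06). These 2 did not overlap between the ages and were named after their values were seen. Bcl2l11, the gene of the cell death protein BIM, fell to 19.8 ± 1.96 CPM at P9, against 39.7 ± 0.986 CPM at P3 (-0.999, edgeR adjusted p = 1.38e-07). Txnip, an inhibitor of thioredoxin and glucose uptake, fell to 92.7 ± 14.4 CPM at P9, against 226 ± 35.1 CPM at P3 (-1.28, adjusted p = 6.73e-07). The sestrin gene Sesn3 had 226 ± 14.5 CPM at P9 and 222 ± 18.01 CPM at P3 (0.03, adjusted p = 0.788). The motif GTAAACA was in the windows of 5 of 33 target genes with a window (15.2%), namely Bcl2l11, Txnip, Trim63, Bbc3 and Sesn1, against 4.05% of all genes. The listed genes were chosen as known FOXO targets, so these shares are not an independent comparison, and their difference was not tested. Bbc3 rose (0.54, adjusted p = 0.0199) and Sesn1 fell (-0.32, adjusted p = 0.00172), both named after their values were seen, and Trim63 had too few counts to test.

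Of 19 partners and targets of GSK3, 6 rose (31.6%) and 5 fell (26.3%), against 26.1% and 25.6% of all tested genes. The median log2 fold change was 0.05, and 3 rose and 3 fell without P9 replicates 5 and 6. Ccnd1, the gene of cyclin D1, whose protein is marked for breakdown by GSK3β, fell to 81.2 ± 30.6 CPM at P9, against 930 ± 223 CPM at P3 (log2 fold change -3.52, edgeR adjusted p = 4.03e-08). Ccnd1 is also one of the progenitor markers, whose sums fell, and their part in this result was not tested. The GSK3-binding proteins moved apart: Frat1 rose by 0.54 (adjusted p = 0.00423), and Frat2 fell by 0.61 on the log2 scale (adjusted p = 0.0011). Apc, the scaffold of the β-catenin destruction complex, had 608 ± 59.2 CPM at P9 and 634 ± 56.9 CPM at P3 (adjusted p = 0.577).

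**Figure D5:**
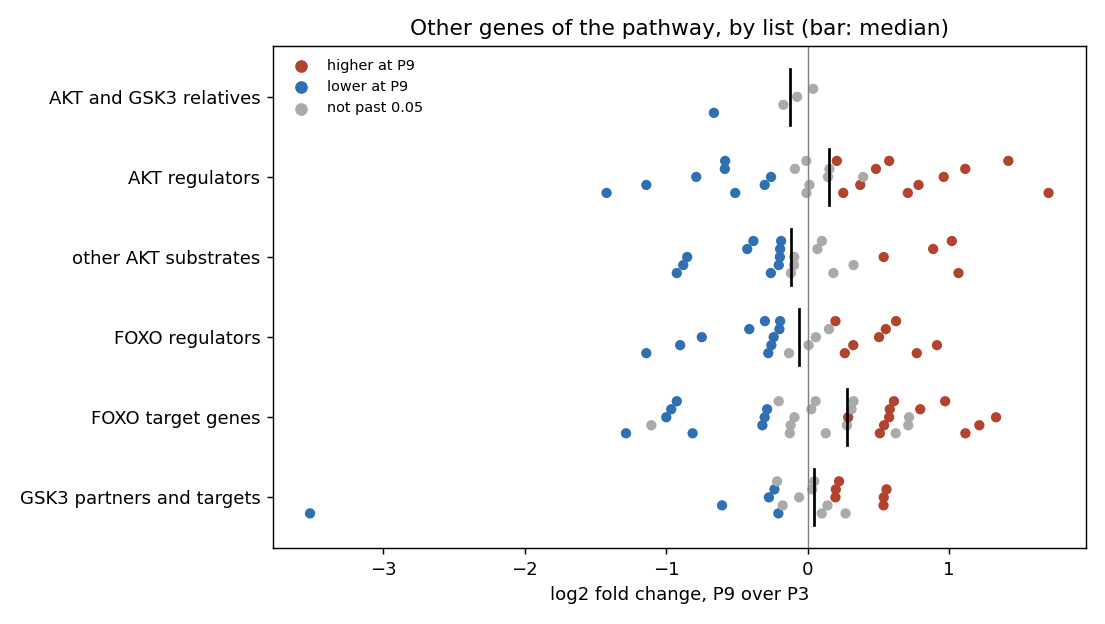
Log2 fold change, P9 over P3, of every tested gene of the 6 lists, one row per list, coloured by whether it was called higher, lower or not called by edgeR, with the list median as a line. Medians lie between -0.12 and 0.28, and the point at -3.52 is Ccnd1.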

How the data were processed

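Polysome mRNA recovered by immunoprecipitation was sequenced from retinas of mice at P9 and P3, 6 libraries each, with a stranded kit per the labels. The authors deposited 1 file of RSEM expected counts per library, estimated read numbers not scaled to depth. The submitters' processing notes name build mm10 and the tools STAR, RSEM, FastQC, Trim Galore and limma, with no versions or roles. RSEM divides reads that map to more than 1 gene by a model, which made 15.9% of the deposited expected counts not whole.

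All files held the same 53090 rows, 0 of them without a gene name, and 240 repeated symbols, of which the row with the most counts was used. Expected counts were rounded, filtered by filterByExpr (34452 genes removed), scaled by TMM and compared by age in edgeR 4.0.16 (R 4.3.3) by its quasi-likelihood test. The test used Benjamini-Hochberg adjustment and a threshold of 0.05, and was tried on simulated counts with known changes. Far fewer genes were changed there than were called in the data, so the trial cannot show how the test behaves here. DESeq2 1.42.0 and limma 3.58.1 gave alternatives, and files were read with data.table version 1.17.8. Ratios within libraries used counts with 0.5 added, and an exact two-sided permutation test with adjustment over 7 pairs. Likeness was measured on log2 CPM (prior count 2). Marker sums are descriptions, with no test.

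Ages come from the labels. Replicates were numbered in deposition order, which pairs no libraries. Titles and files of P9 replicates 5 and 6 disagree on which is which, and both are P9. No litter, sex or batch is named.

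The 8 genes, the lists and the tests were chosen with earlier results of these data known. The rule named all 8 genes, and per gene the 2 most alike genes. Per list it named the 3 called genes with the smallest adjusted p. The gene of each list with the largest sum of mean CPM at P9 and mean CPM at P3 was also named. That sum was a way to choose genes, not a rank of levels. For likeness, genes with model names were left out. Positions and promoter windows were taken from RefSeq (GRCm38.p6, the same assembly as mm10). Protein sequences were not used here.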

Additional observations from a re-analysis of the deposited data

Results flagged for a closer look

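Foxo1 at P3 had 1 library far from the rest: replicate 5 was at 22.7 CPM and the next at 17.3 CPM, a gap of 0.722 of the whole range, above Dixon's critical value for 6 samples. The log2 ratio of Foxo3 to Foxo6 at P3 was highest in replicate 6 at 5.44, with the next at 4.82, a gap of 0.787 of the range. These were 2 of the 30 groups of 6 libraries looked at, and chance flags about 1 in 20.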

How the results depend on the processing

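Outside the marker covariates, 23 other settings (scaling, filters, other tools and libraries left out) kept the sign and the call of Akt1 (log2 fold change -0.515 to -0.375), Foxo1 (0.333 to 0.481), Foxo4 (-1.383 to -1.246) and, in the 22 settings that tested it, Foxo6 (-1.133 to -0.694). Akt2 lost its call once and Pdpk1 in 7. The fold change of Foxo3 reversed to 0.007 without P3 replicates 4 and 5. Of the 8 genes, 1 to 2 were called higher with single libraries left out, 1 without P9 replicates 5 and 6, and 0 at an adjusted p under 0.01. The Akt2 to Akt1 ratio difference ran from 0.178 to 0.266 with single libraries left out and was 0.136 without P9 replicates 5 and 6. The Foxo4 to Foxo6 difference was -0.666 without P3 replicates 4 and 5. No paired analysis was possible because replicate numbers here come from deposition order alone.

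Marker means as covariates, of which proliferation and lens were added after seeing the data, lowered the 9647 genes called by edgeR to 1083 (546 higher, 537 lower) with pericyte, 47 (24 and 23) with rod, 0 (0 and 0; 306 at an unadjusted p under 0.05) with progenitor, 8 (7 and 1) with proliferation and 1319 (923 and 396) with lens markers. Of the 8 genes, 0 were called higher with each of the 5. With rod, progenitor or proliferation markers 0 were called lower, and with lens markers 1, Foxo4. Fold changes reversed for Gsk3b (-0.253) and Foxo1 (-0.091) with pericyte markers, for Akt1 (0.082), Pdpk1 (-0.272), Gsk3b (-0.497) and Foxo1 (-0.348) with rod markers, for Akt1 (0.25), Pdpk1 (-0.369), Gsk3b (-0.499) and Foxo1 (-0.921) with progenitor markers, and for Akt1 (0.083), Pdpk1 (-0.196), Gsk3b (-0.405) and Foxo1 (-0.271) with proliferation markers. No reversed value was called, and the smallest edgeR adjusted p among them was 0.556 (Gsk3b with rod markers, SE 0.271). The signs of these values are therefore not established. The cause of the reversals was not tested. Depth limits Foxo6 most, which rests on 69 to 332 counts per library.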
